A study of Saccharomyces cerevisiae with 20 samples.

Results

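The strains described here carry single amino acid substitutions in histone H3 of Saccharomyces cerevisiae between residues 44 and 62, the stretch that holds the N-terminal helix (residues 44 to 57) and the link (residues 58 to 62) to the first helix of the histone fold. They were taken from the mutation names of the library, with no measured value used, and a strain was kept where its 2 barcodes together averaged 10 counts or more over the 20 libraries. The library listed 20 such substitutions at 12 of the 19 residues. Of these, 13 substitutions at 9 residues were kept, among 347 strains kept of 422 named.

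The study followed a pooled, barcoded library of H3 and H4 mutants in 1 ageing culture and counted the barcodes in quiescent and non-quiescent cells, to find histone residues that affect chronological lifespan (CL), the time that non-dividing cells stay alive. The pool was grown in YPD at 30°C, diluted into fresh YPD and kept shaking, and aliquots of days 0, 1, 2, 3, 5, 7, 14, 24, 34 and 44 were parted on a density gradient. All groups share 1 background, JDY86 derived (MATa, his3Δ200, leu2Δ0, K2Δ0 as the methods spell it, trp1Δ63, ura3Δ0, met15Δ0, with can1 replaced by MFA1pr-HIS3 and the hht1-hhf1 gene pair by NatMX4), and the mutated histone gene pair stands at hht2-hhf2 with URA3, so that each strain makes H3 and H4 from that pair alone. Each fraction and day is represented by 1 library, without replicates, and the days are serial samples of that culture. Each mutation is represented by 1 barcoded strain. The p-values below therefore measure the scatter of libraries about a trend in that culture, and not the difference between cultures or between clones of a mutant.

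The N-terminal helix of H3 lies just inside the tail and meets the DNA where it enters and leaves the nucleosome. Residue K56, on its DNA-facing side, is acetylated in yeast on newly made H3 by Rtt109 with the chaperone Asf1 and is deacetylated by Hst3 and Hst4. T45 and S57 near the ends of the helix can be phosphorylated, E50 is an acidic residue on the side of the disk between the turns of DNA, and the leucines of the link are hydrophobic. An alanine in place of a residue removes most of its side chain, glutamine resembles an acetylated lysine or an uncharged glutamate, and aspartate resembles a phosphorylated serine or threonine.

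A strain is read out through its up and down barcodes, each of 20 bases, which were amplified separately with common primers. The pairs below belong to the strains on which the results turn: the substitutions at E50, K56 and L60, the pair at S57, and H3K56R, which was listed but had no counts. They are synthetic tags beside the histone cassette and not histone sequence, and no barcode of the 20 strains came closer than 6 mismatches to another barcode of the library. They are written 5′ to 3′ as in the deposited table.
H3E50A up: atagttcccgcagctcgttg
H3E50A down: atggtccgactggatcacct
H3E50Q up: tttcacttccggcatgggtg
H3E50Q down: tatcagttccgcagacgggt
H3K56A up: aggaggccctgcatttccat
H3K56A down: aaatctcattggaggaggct
H3K56Q up: gtgtaactccacattaacgc
H3K56Q down: gactactcgccatacttggg
H3K56R up: gtgcgaaccaacgtactaca
H3K56R down: gtcagaacccactcgattta
H3S57A up: atagattcggccaccggcat
H3S57A down: acttgaggcgtagacctgct
H3S57D up: atcactgtagtcacgtagct
H3S57D down: atagctctggaacgacctgc
H3L60A up: attcgagcggtagccacgat
H3L60A down: atcgtacttggcactggagt

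The libraries held 126647 to 337544 counts, the median kept strain had 206 to 486 counts in a library, and the 13 strains together took 1.48% to 2.70% of the counts of kept strains. The level of a strain is given as the log2 of its summed up and down count over the median kept strain of the same library. The day 5 libraries stood apart from their labels. Over 347 strains, the levels of the quiescent library of day 5 correlated more closely with non-quiescent day 3 (Pearson's r = 0.973) than with quiescent day 3 (0.906), and non-quiescent day 5 more closely with quiescent day 3 (0.983) than with non-quiescent day 3 (0.895). The comparisons that include day 5 were therefore also made without it. The quiescent library of day 24 held few down counts. The wild type had 768 up and 125 down counts there, against 712 and 546 at day 14, and H3E50A had 16 and 6, against 8 and 28. Summed levels of that library thus rest mostly on the up barcode, and the size of this effect on single levels was not tested.

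The 7 other listed substitutions, H3G44A, H3V46A, H3R49A, H3R53A, H3R53K, H3K56R and H3T58D, were at 0 in all 20 libraries, including day 0. A count of 0 allows a share of up to 0.000889% to 0.00237% of a library. These strains could thus not be followed, and R53, an arginine that faces the DNA, had no strain with counts. Across the whole library 68 of 422 strains were at 0 throughout. No strain of the stretch had counts and missed the mean of 10.

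Of the 13 strains, 10 followed 1 of 3 courses. H3K56A, H3K56Q, H3S57D, H3L60A and H3L61A lost most of their level within the first day after dilution in both fractions. H3E50A, H3E50Q and H3E59A, substitutions of acidic residues, showed no called change in the first days and rose among quiescent cells after day 7. H3R49K and H3T58A fell among quiescent cells over the same days. H3A47S, H3S57A and H3E59Q passed neither the test of the first days nor that of the quiescent cells after day 7. In the non-quiescent fraction no strain of the library passed the test for a trend after day 7.

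The first days were compared by setting days 1, 2 and 3 against day 0 over both fractions, a span that includes growth in fresh medium. Of the 13 strains, 6 were lower after day 0 (edgeR quasi-likelihood test, Benjamini-Hochberg adjusted p under 0.05), where 28.8% of all 347 strains were, and 0 were higher, where 25.4% were. The lower strains were all 3 kept substitutions of DNA-facing residues (H3R49K, H3K56A, H3K56Q), both hydrophobic ones (H3L60A, H3L61A) and H3S57D. None of the 4 substitutions of E50 and E59 passed the test, and neither did H3A47S, H3S57A or H3T58A, whose differences lay between -0.59 (H3E50A) and 0.28 (H3T58A). H3K56A reached the mean of 10 only through day 0, which held 154 of its 202 counts, and averaged 2.67 counts in the other 18 libraries, so that its fall from day 0 was fixed by the filter. Among strains that reach this mean without day 0, a filter chosen after seeing the data, 5 of 12 were lower here and 28% of 343 in the library. The wild type differed by 0.29 ± 0.14 (SE, adjusted p = 0.109).

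K56, the acetylated lysine of the helix, was represented by an alanine and a glutamine. H3K56A fell from 98 counts at day 0 of the quiescent fraction to 2, 4 and 5 counts at days 1, 2 and 3, and from 56 counts to 2 on each of these days among non-quiescent cells. No later library of either fraction held more than 8 counts of H3K56A, and 2 held none. Its difference between days 1 to 3 and day 0 was -4.79 ± 0.32 on the log2 scale (SE, edgeR adjusted p = 8.56e-06), which is 27.7-fold lower, a size that describes the strain and, given the filter, supports nothing. H3K56Q, the substitution that resembles acetylated lysine, fell from 637 counts to 104, 117 and 80 in the quiescent fraction and from 515 to 121, 52 and 51 in the non-quiescent fraction. The difference for H3K56Q was -2.82 ± 0.31 (adjusted p = 0.000142), 7.08-fold lower.

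The hydrophobic residues of the link gave a similar early loss. L60 and L61 were each represented by an alanine. H3L60A held 442 quiescent and 382 non-quiescent counts at day 0, then 11, 21 and 44 quiescent and 45, 19 and 19 non-quiescent counts at days 1, 2 and 3. Its difference was -4.05 ± 0.42 (adjusted p = 9.82e-05), 16.5-fold lower. In the quiescent fraction its level moved from -4.97 at day 1 to -2.93 at day 3 and was -6.30 at day 7, on 4 counts. From day 14 on it held 2, 0, 6 and 1 quiescent counts, while the non-quiescent libraries of the same days held 15, 13, 21 and 20. H3L61A, which was rarer at the start (52 and 85 counts), fell to between 9 and 17 counts in the 6 libraries of days 1 to 3, a difference of -2.52 ± 0.30 (adjusted p = 0.000229). Its later levels stayed between -5.40 and -4.53 in both fractions, days 5 to 44.

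At S57 the 2 substitutions gave unlike values. H3S57D fell from 278 counts to 70, 61 and 60 among quiescent cells and from 255 to 23, 12 and 23 among non-quiescent cells, a difference of -3.08 ± 0.39 (adjusted p = 0.000341). H3S57A, with 108 quiescent counts at day 0 and 131, 111 and 107 at days 1 to 3, gave 0.085 ± 0.24 (adjusted p = 0.793), and the difference between these strains in the first days was not tested. The level of H3S57D after the fall was higher in quiescent than in non-quiescent cells on all 3 days, by 1.08 to 2.37 on the log2 scale.

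R49 is an arginine that points toward the DNA, and lysine keeps its positive charge. H3R49K passed the test in 1 fraction alone. Its quiescent counts were 417 at day 0 and 464, 362 and 320 at days 1 to 3, whereas its non-quiescent counts were 490 and then 177, 238 and 185. The pooled difference was -0.89 ± 0.28 (adjusted p = 0.0248), and it came from the non-quiescent libraries: in those alone it was -1.46 ± 0.23 (adjusted p = 0.00818), and in the quiescent ones -0.12 ± 0.21 (adjusted p = 0.666). The difference between the fractions in these days was not tested. By day 7 the non-quiescent level was 0.23, above the -0.82 of day 1 but below the 0.83 of day 0. The call of H3R49K was lost without day 2 (adjusted p = 0.067) or day 3 (0.0679), and the other 5 calls were kept in both cases. In these fits 121 and 156 of all strains were called, against 188 with all days. H3E50A was called as well without day 1 (adjusted p = 0.0138). In fits to each fraction alone, chosen after seeing the data, these 5 strains were also called as lower, and 0 as higher, with the quiescent libraries alone, where 11.8% of all strains were lower and 2.59% higher, and with the non-quiescent ones alone, where 22.5% were lower and 21.6% higher. DESeq2 called 4 and 6 of the 13 in these fits, and 59 and 134 of all 347 strains.

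The second comparison asked which strains changed among quiescent cells in stationary phase, from day 7 to day 44. Of the 13 strains, 3 rose and 2 fell, where 17.9% of all strains rose and 22.8% fell, so that the share called in the stretch was close to that of the library. The 3 that rose were among the 4 substitutions of glutamates. E50, which the study places between the turns of DNA, gave the steepest change.

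H3E50A was the rarest of them. It held 14 quiescent counts at day 7 and 36, 22, 109 and 73 at days 14, 24, 34 and 44, so that its level moved from -4.50 to -1.79. In the non-quiescent fraction of these days it held 8, 18, 11, 12 and 16 counts, with levels between -5.21 and -4.32, so that from day 14 on each quiescent library lay above each non-quiescent one. Its slope was 0.64 ± 0.13 per 10 days (SE, log2, adjusted p = 0.00935), rank 6 from the top among 347 strains. H3E50Q, which keeps the size of the side chain without its charge, was abundant throughout. It held 343 quiescent counts at day 7 and 652, 658, 1836 and 823 afterwards, and its level moved from 0.12 to between 0.94 and 1.92. Its slope was 0.41 ± 0.11 per 10 days (adjusted p = 0.0184), while its non-quiescent levels of the same days lay between -0.17 and 0.13.

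E59, the acidic residue of the link, moved in the same direction as E50. H3E59A held 419 quiescent counts at day 7 and 562, 558, 1596 and 719 later, with levels of 0.41 at day 7 and 1.44 to 1.72 at days 24 to 44. Its slope was 0.32 ± 0.08 per 10 days (adjusted p = 0.0165). H3E59Q moved from a level of -0.70 at day 7 to 0.40, 0.57 and 0.14 at days 24, 34 and 44, and its slope of 0.27 ± 0.10 missed the threshold (adjusted p = 0.0615). Its non-quiescent levels of days 7 to 44 stayed between -0.90 and -0.63, below each quiescent level of days 14 to 44.

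The 2 strains that fell carry substitutions that leave the charge of the residue as it was. H3A47S, H3S57A, H3L60A and H3L61A do so too and were not called. H3R49K had 366 quiescent counts at day 7 and 253, 95, 184 and 97 later, a change of level from 0.21 to -1.38, with a slope of -0.46 ± 0.09 per 10 days (adjusted p = 0.00822). H3T58A, the most abundant strain of the 13, went from 583 counts to 612, 314, 660 and 266, a change of level from 0.88 to 0.07, with a slope of -0.23 ± 0.05 (adjusted p = 0.00797). Their non-quiescent levels of these days were 0.16 to 0.23 and 0.93 to 1.13. H3K56Q moved the same way without passing the test, from a level of -2.58 at day 7 to -3.69, -4.22 and -3.28 at days 24, 34 and 44, on 53 and then 16, 26 and 26 counts (slope -0.38 ± 0.17, adjusted p = 0.119).

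H3S57D, after its early loss, stood at -2.42 at day 7 and at -0.74, -0.78 and -1.27 at days 24, 34 and 44, on 59 and then 123, 283 and 105 counts (slope 0.35 ± 0.16, adjusted p = 0.113). Its 123 counts of day 24 were 112 up and 11 down. H3S57A moved from -1.81 to between -1.18 and -0.78 (slope 0.18 ± 0.10, adjusted p = 0.17). For H3K56A and H3L60A, with at most 8 quiescent counts from day 7 on, and H3L61A, with at most 21, a further change was not detectable at this depth. H3A47S, a small residue of the helix changed to another, gave 0.030 ± 0.071 (adjusted p = 0.76). The slope of the wild type was 0.10 ± 0.07 (adjusted p = 0.254). Of the 5 calls, only that of H3T58A held without day 7, those of H3R49K, H3E50A and H3T58A held without day 34, and without day 44 the number called was 8, with H3K56Q, H3S57D and H3E59Q added.

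The same model over the non-quiescent libraries of days 7 to 44, a fit chosen after seeing the data, called 0 of the 13 strains and 0 of 347 in edgeR, with 1 and 37 at an unadjusted p under 0.05, and 0 in DESeq2. The slopes of the 13 strains lay there between -0.27 (H3K56A) and 0.15 (H3S57D) per 10 days.

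Slopes from day 0 to day 44 were fitted on the log2 of day + 1, so that a slope is the log2 change for each doubling of day + 1. In the quiescent fraction 4 of the 13 strains rose and 6 fell, where 21.6% and 27.1% of all strains did. All 4 substitutions of the glutamates rose: H3E50A by 0.48 ± 0.13 (SE, edgeR adjusted p = 0.0101), H3E50Q by 0.33 ± 0.07 (0.00335), H3E59Q by 0.23 ± 0.06 (0.00577) and H3E59A by 0.22 ± 0.06 (0.0119). The 6 that fell were the DNA-facing H3R49K (-0.38 ± 0.07), H3K56Q (-0.76 ± 0.10) and H3K56A (-0.79 ± 0.23), H3T58A (-0.22 ± 0.05), and the hydrophobic H3L60A (-1.41 ± 0.24) and H3L61A (-0.33 ± 0.12), with adjusted p from 0.000567 to 0.0461. For H3K56A the fall rests on day 0, which also decided its passing the filter, and without it the slope was 0.090 (adjusted p = 0.736), while H3S57D was called, at 0.40 (adjusted p = 0.0109). The call of H3L61A was lost without any 1 of 7 days, day 0 (adjusted p = 0.92) and day 5 (0.0589) among them, and that of H3E50A without day 44 (0.0556).

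In the non-quiescent fraction only H3K56A (-1.08 ± 0.23, adjusted p = 0.0168) and H3L60A (-0.74 ± 0.16, adjusted p = 0.0175) fell over the whole course, and 0 rose, where 5.76% of all strains fell and 0.865% rose. The first of these is the strain kept through day 0. Both calls were lost without day 0 (adjusted p = 0.531 and 0.203), when H3R49K alone was called, with a slope of 0.22 (adjusted p = 0.0499), and that of H3L60A also without day 24 (adjusted p = 0.0507). H3L61A was called as well without day 1 (-0.52, adjusted p = 0.0446) and H3K56Q without day 2 (-0.45, adjusted p = 0.0438).

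The third comparison set the fractions against each other. The mean difference between quiescent and non-quiescent cells over all days, with day as a block, passed the test for 0 of the 13 strains in edgeR, as for 0% of all strains, with 4 and 87 at an unadjusted p under 0.05. DESeq2 called 2 of the 13, H3S57D and H3L60A, and 56 of all strains. The difference for H3S57D was 1.12 ± 0.28 (edgeR adjusted p = 0.0734), and its quiescent level was the higher one on all 3 days from day 1 to day 3 and on all 4 days from day 14 to day 44, but not on day 5. Without day 5 it was called, at 1.29 (adjusted p = 0.0111), as were 47 of all strains. For H3L60A the difference was -1.13 ± 0.55 (adjusted p = 0.22), with a lower quiescent level on each of days 14 to 44 and a gap between -4.20 and -2.48.

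The slopes of the fractions differed in 8 of the 13 strains. The quiescent slope exceeded the non-quiescent one in 5 strains, where 15.3% of all strains did, and fell short of it in 3, where 17.6% did. The 5 were H3E50A (0.56 ± 0.10 per doubling of day + 1, adjusted p = 0.00431, rank 2 of 347), H3E50Q (0.38 ± 0.08, 0.00629), H3E59Q (0.29 ± 0.09, 0.0364), H3E59A (0.26 ± 0.08, 0.026) and H3S57A (0.22 ± 0.07, 0.0311). The 3 were H3R49K (-0.42 ± 0.12, 0.0253), H3K56Q (-0.39 ± 0.13, 0.036) and H3T58A (-0.20 ± 0.04, 0.00599). For the wild type the difference was 0.069 ± 0.041 (adjusted p = 0.202). Without day 5 the same 8 strains were called.

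On all 4 days from day 14 to day 44 the quiescent level was the higher one for the 5 strains and the lower one for the 3. These libraries also entered the test that picked the 8 strains, so that the gaps describe the calls and add no support. Without a call, the quiescent level was also higher on all 4 days for H3A47S, H3K56A, H3S57D and the wild type, and lower for H3L60A. For H3L61A it was higher on 1 of the 4 days. The share of the library was not counted. The mean gap over these days was 1.95 for H3E50A, 1.54 for H3E50Q, 1.13 for H3E59A, 0.94 for H3E59Q and 0.66 for H3S57A, and -1.28 for H3R49K, -1.32 for H3K56Q and -0.50 for H3T58A. For the wild type it was 0.18, with 0.10 to 0.26 on single days. The number called depended on single days: 2 without day 44 (H3E50A and H3E50Q), 3 without day 24 or day 34 (H3T58A added), 4 without day 2 (H3R49K added as well) and 6 without day 1 or day 14 (H3S57A and H3E59Q lost). Over days 7 to 44 alone, a fit chosen after seeing the data, 2 strains were higher and 2 lower, where 11% and 14.4% of all strains were. DESeq2 called 1 of the 13 in that fit, H3R49K (adjusted p = 0.00226), with 0.0516 for H3E50Q, 0.117 for H3E50A and 0.145 for H3T58A.

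The day 44 ratio sums up both phases: quiescent counts of day 44 were divided by those of day 0, and the median log2 ratio of the kept strains (-0.26) was subtracted. The median strain is here the one of median ratio, and not of median count as for the levels. A ratio can therefore differ from the change of level over the same days. It has no test, and its 95% interval (exact, Clopper-Pearson) covers the error of counting alone, because PCR copies of a barcode are not separate molecules. Of the 13 strains, 2 exceeded the median strain more than 2-fold and 7 lay below it by as much, where 14.1% and 26.5% of all strains did. Their median was -1.14, with an SD of 3.07 among the 13, against an SD of 2.04 among all kept strains. With the filter applied without day 0, which leaves H3K56A out, 2 and 6 of 12 strains were that far off and their median was -0.64.

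The highest ratios were those of H3E50A at 2.45 (1.66 to 3.33, from 16 to 73 counts), 5.47-fold above the median strain, and of H3E50Q at 1.26 (1.09 to 1.43), 2.39-fold above it. H3E59Q followed at 0.76 (0.50 to 1.04), H3E59A at 0.65 (0.49 to 0.82) and H3S57A at 0.44 (0.05 to 0.83), which is near the 0.41 (0.29 to 0.54) of the wild type. H3A47S stood at -0.13, with an interval that includes 0 (-0.44 to 0.16). All 4 glutamate substitutions thus lay above the median strain and above the wild type, although the intervals of both E59 strains overlap that of the wild type.

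The lowest ratios were those of H3L60A at -8.53 (-13.83 to -6.04, from 442 counts to 1), H3K56A at -5.35 (-8.42 to -3.46, from 98 to 2) and H3K56Q at -4.35 (-4.98 to -3.79, from 637 to 26). The fall of H3K56A from day 0 was fixed by the filter. H3L61A stood at -2.85 (-4.36 to -1.63), H3R49K at -1.84 (-2.18 to -1.52), H3T58A at -1.21 (-1.42 to -1.003) and H3S57D at -1.14 (-1.48 to -0.81). Their courses differed. With day 7 as the start, H3R49K stood at -1.69 and H3T58A at -0.90, most of their whole fall, whereas H3K56Q stood at -0.80 and H3S57D at 1.06, on the other side of the median. From day 7, 4 of the 13 strains gained more than 2-fold on the median strain and 2 lost as much, where 13.3% and 19.3% of all strains did. The 2 were H3R49K and H3L60A, of which the latter went from 4 counts to 1 (-1.77, -7.39 to 1.57), a change not detectable at this depth.

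The same ratio among non-quiescent cells was lowest for the 5 strains of the early course. These strains were grouped by their loss from the same day 0 library, so that their low ratios describe the grouping and add no support. H3K56A, whose fall was fixed by the filter, stood there at -5.36, H3L60A at -4.81, H3K56Q at -3.19, H3L61A at -3.16 and H3S57D at -2.64. All 5 lay more than 2-fold below the median strain, where 75 of all 347 strains did. H3R49K stood at -0.84, H3T58A at 0.087 (-0.088 to 0.26), H3E50Q at -0.31 (-0.52 to -0.091) and H3E50A at -0.80 (-1.86 to 0.24), so that neither E50 strain lay above the median strain in that fraction from day 0. From day 7 both did, with H3E50Q at 0.29 (0.068 to 0.52) and H3E50A at 0.76 (-0.55 to 2.19, from 8 to 16 counts), although neither slope of these days was called.

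At 4 residues the library held more than 1 kept substitution, and the quiescent courses of each pair were compared by a permutation test of the slope of their log2 ratio on log2(day + 1) over 10 days (100000 resamples, two-sided, p adjusted over the 4 pairs). No pair passed. The ratio of H3E50Q to H3E50A changed by -0.15 ± 0.08 (SE) per doubling of day + 1 (permutation adjusted p = 0.407), and that of H3K56Q to H3K56A by -0.30 ± 0.28 (permutation adjusted p = 0.64). For H3S57D over H3S57A it was -0.020 ± 0.16 and for H3E59Q over H3E59A -0.0024 ± 0.038 (permutation adjusted p = 0.95 for both).

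A straight slope does not describe the pair at S57, whose log2 ratio of counts was 1.36 at day 0, had a minimum of -1.51 at day 5 and of -0.90 without that day, and ended at -0.22. Taken from day 0 to day 44 alone, H3S57D lost more than H3S57A by 1.58 on the log2 scale, with a counting interval of the difference from -2.07 to -1.08. H3E50Q gained less than H3E50A, by -1.16 (-1.95 to -0.37). The difference was 0.71 (-1.18 to 2.61) at K56 and 0.11 (-0.20 to 0.42) at E59, where the interval keeps the difference within 0.42 in either direction. These intervals cover counting error only, and a p that misses the threshold does not show that the substitutions of a pair act alike.

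By the roles of the residues, the DNA-facing group (H3R49K, H3K56A, H3K56Q) had a median day 44 ratio of -4.35, the modifiable group (H3K56A, H3K56Q, H3S57A, H3S57D, H3T58A) of -1.21 and the hydrophobic group (H3L60A, H3L61A) of -5.69. The polar group (H3E50A, H3E50Q, H3E59A, H3E59Q) had a median of 1.01 and a range of 0.65 to 2.45. The groups share strains and were not tested against each other. H3K56A, whose fall from day 0 was fixed by the filter, enters the DNA-facing, modifiable and helix medians. The other DNA-facing strains stood at -1.84 (H3R49K) and -4.35 (H3K56Q). The helix itself, with 8 strains, and the link, with 5, each held strains of all 3 courses, with medians of -0.64 and -1.21.

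The neighbouring stretches gave these counts by the same tests. In the first days 6 of 25 strains were lower at H3 residues 29 to 43, 5 of 20 at H3 residues 63 to 77 and 5 of 9 at H4 residues 33 to 42. The last is the part of H4 that passes over the N-terminal helix. Here 6 of 13 were lower, H3K56A among them through the filter, and 28.8% of all strains were. In the same order 8, 3 and 0 strains were higher, against 0 here and 25.4% of all strains. The quiescent slope exceeded the non-quiescent one in 0 of 25, 0 of 20 and 2 of 9 strains, against 5 of 13 here and 15.3% of all strains. It fell short in 6, 4 and 1, against 3 here and 17.6% of all strains. These differences between stretches were not tested.

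The up and the down barcode, counted apart, placed the day 44 ratio on the same side of the median strain for all 13 strains. They were furthest apart for H3E50A, at 3.56 from 3 to 30 up counts and 2.08 from 13 to 43 down counts. For H3S57D they gave -0.92 and -1.71, and for H3K56Q -4.58 and -3.85. The up barcode held 35.0% of the counts of H3E50A and 71.1% of those of H3S57D, the ends of the range among the 13 strains.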

How the data were processed

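The authors counted up and down barcodes with get_seqs_from_fastq, assigned them with match_barcodes_to_strain, and deposited raw counts for each library. Another table, of the authors' own log2 ratios of quiescent cells, was not used. Counts were joined to mutations by barcode ID and summed. Of 488 listed pairs, 65 had no strain name and held 10.6% to 20.7% of a library's 126647 to 337544 counts. The up barcode of the wild type is also listed as the down barcode of H3G13A, and the wild type is listed 2 times, the second time without counts. Tests used edgeR 4.0.16 in R 4.3.3 (TMM, quasi-likelihood, Benjamini-Hochberg over 347 strains, adjusted p under 0.05), with residual degrees of freedom of 3 (days 7 to 44) to 9, and were tested on simulated data. Alternatives were DESeq2 1.42.0, library totals or the wild type as scale, no filter, each barcode alone and each day left out. Where a count was 0, 0.5 replaced it in ratios (0.5 was added to every count of the pairs). Python 3.11.15 was used with scipy 1.17.1. Every kept strain of the stretch is named, with full statistics for those called, those at E50, K56 and L60 and the 3 highest and 3 lowest day 44 ratios. Members, lists and tests were chosen with earlier results of these data known. Other residues of the stretch were not analysed here.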

Additional observations from a re-analysis of the deposited data

Results flagged for a closer look

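The slope on log2(day + 1) differed between the quiescent and the non-quiescent fraction, by an interaction term of edgeR over all 347 strains, in 8 strains of the stretch. The quiescent slope was the higher one for H3E50A, by 0.56, H3E50Q, by 0.38, H3E59Q, by 0.29, H3E59A, by 0.26, and H3S57A, by 0.22. It was the lower one for H3R49K, at -0.42, H3K56Q, at -0.39, and H3T58A, at -0.20. With the interaction taken over days 7 to 44 alone, a fit chosen after seeing the data, 4 of them were called, H3R49K (adjusted p = 0.0265), H3E50A and H3E50Q (0.0454 each) and H3T58A (0.0393), where 11% of all strains were higher and 14.4% lower. DESeq2 called only H3R49K of the 13 in that fit, and 74 of all strains.

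Outside the named strains, 57 of the 65 barcode pairs without a strain name held counts, and they were not used in any comparison.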

How the results depend on the processing

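Over all alternatives, 1144 of 1264 values of single strains and pairs kept their side of the threshold, or stayed within counting error where no test was made. Direction was compared only for values called in the main analysis, and some uncalled values changed sign. A value without an adjusted p in DESeq2 was counted as kept. A call was lost in 70 and gained in 18, the sign of 5 called values turned, and 27 untested values moved. An untested ratio counted as called where it was more than 2-fold off the median strain with an interval that left out 0. The turned values were the quiescent slope of H3K56A without day 0 (0.090, the highest of the values without 1 day, which ran from -0.98), the day 44 ratio of H3S57D from day 7 (1.06), and among non-quiescent cells the day 44 ratios of H3E50A (-0.80), H3E50Q (-0.31) and H3T58A (0.087). For the slope of days 7 to 44, 5 strains were called, with 1 to 8 when 1 day was left out and 0 in non-quiescent cells. The whole library gave 141, with 32 to 165 when 1 day was left out and 0 in non-quiescent cells. For the non-quiescent slope, 2 were called, with 1 for the down barcode, 0 on day itself, 1 to 3 without 1 day and 1 with the filter on the mean count without day 0. The whole library gave 23, with 17 for the down barcode, 0 on day itself and 16 to 37 without 1 day. For the fraction term, 0 were called, with 2 in DESeq2 and 0 to 1 without 1 day, where the whole library gave 0, 56 and 0 to 47. For the difference of slopes, 8 were called, with 5 on library totals, 4 with the down barcode, 4 over days 7 to 44 and 2 to 8 without 1 day. The whole library gave 114, with 122, 64 and 88 in the first 3 of these settings and 18 to 144 without 1 day. In non-quiescent cells 5 day 44 ratios were more than 2-fold off the median strain, against 9 in quiescent cells. Of all 347 strains, 12 lay that far above and 75 that far below in non-quiescent cells, and 49 and 92 in quiescent cells, so that the library had fewer there too. The cause was not tested. Counts of at most 21 limit the late values of H3K56A, H3L60A and H3L61A. Scaled to the wild type, H3E50Q and H3E59A were also lower in the first days (adjusted p = 0.0404 and 0.015). The fraction term was fitted with day as a block, and without the block it also called 0.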
